A study of Mus musculus with 18 samples.

Results

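The genes described here encode the proteins of the cytosolic ribosome. They were chosen by symbol: Rpl or Rps followed by a number, with an optional suffix a, x, y or l, together with Rplp0, Rplp1, Rplp2 and Rpsa, and without pseudogenes marked -ps and the Rps6k kinases. The rule found 82 of the 19630 mouse genes in the table, 31 of the small subunit and 51 of the large subunit. Of these, 81 had enough counts to be tested, and Rpl6l, a low-count locus, did not. The members lie on 19 chromosomes, with 14 of them on chromosome 7.

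The series holds RNA sequencing of 18 libraries from mouse cells, with 6 groups of 3. Embryonic stem (ES) cells were grown on embryonic fibroblast feeders labelled p53-defective, with the integrin α5β1 inhibitor ATN161 in place of feeders, on control feeders that were then removed, or on control feeders that were kept. Feeders labelled p53-defective and control feeders were also sequenced without ES cells. The label of the groups on feeders names both ES cells and embryonic fibroblasts as the source, so their RNA is a mixture. Neither the alteration of p53 nor the mouse strain nor the way of removing feeders is given in the labels. Levels are given in CPM, counts per M (mega) of the library total scaled with TMM factors. Trp53 RNA averaged 296 CPM in the feeders labelled p53-defective and 119 CPM in control feeders, so the label is not matched by a lower Trp53 transcript level, and the feeders are called "labelled p53-defective" throughout. Library totals were 15.1 to 19.8 M counts. The labels do not say whether the 3 libraries of a group came from separate cultures, so p-values measure the spread between these libraries, which may be technical. The 10 ES markers summed to at most 1.53 CPM in both kinds of feeders alone, with 7 of them at 0 counts in feeders labelled p53-defective and 5 in control feeders, and to 271 to 397 CPM in ES cells on feeders labelled p53-defective against 2934 to 3082 CPM in ES cells on control feeders. The 10 fibroblast markers were present in every group, at 694 to 765 CPM with ATN161 and 3223 to 3741 CPM after feeder removal.

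Ribosomal proteins clothe the ribosomal RNAs of the small subunit, which reads the messenger RNA, and of the large subunit, which joins the amino acids. Their RNAs are among the most abundant in growing cells, and most carry a 5′ terminal oligopyrimidine (TOP) tract, a C followed by further C or T bases at the first transcribed position, through which mTOR signalling and LARP1 control their translation together. Some ribosomal proteins also act outside the ribosome: free RPL5 and RPL11, bound to 5S ribosomal RNA, restrain MDM2 and so stabilise p53.

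The promoter table (RefSeq, GRCm38.p6) held 61 of the 82 members. At an annotated first base, 14 of the 61 (23.0%) had a C followed by at least 4 C or T bases on the transcribed strand, against 3.01% of 27025 genes in the same table. The motif CTTTC, read on the transcribed strand within 25 bases either side of the start, was present in 31.1% of members and 7.87% of all genes, whereas its reverse complement GAAAG was present in 8.20% of members and 7.07% of all genes. The letters CCGGAAG, on either strand of the 300 bases around the start, were found in 41.0% of members and 9.93% of all genes. The lines below show 30 bases, 10 before and 20 from the annotated first base, for members named in the results, with the pyrimidine run from the first base in capitals. They are shown to set members with a run beside the paralogs Rpl10l and Rpl39l and their partners. The windows of these paralogs and partners have no run from the annotated first base, and runs elsewhere in a window are not marked.
Rps18 (chr17:33955646-33955675, minus strand): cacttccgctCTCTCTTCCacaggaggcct
Rps10 (chr17:27635225-27635254, minus strand): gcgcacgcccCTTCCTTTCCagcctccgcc
Rps6 (chr4:86857348-86857377, minus strand): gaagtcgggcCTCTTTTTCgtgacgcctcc
Rps27 (chr3:90213629-90213658, minus strand): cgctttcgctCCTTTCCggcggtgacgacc
Rpl10 (chrX:74270806-74270835, plus strand): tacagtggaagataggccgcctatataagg
Rpl10l (chr12:66284382-66284411, minus strand): cctccattttgcggctggcggtgggcacgc
Rpl39 (chrX:37085203-37085232, minus strand): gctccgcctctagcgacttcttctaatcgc
Rpl39l (chr16:10170218-10170247, plus strand): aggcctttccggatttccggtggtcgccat

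The members together took a larger share of the RNA in ES cells on feeders labelled p53-defective than in ES cells on control feeders. Their share of all gene counts was 10.3, 11.6 and 8.82% in the 3 libraries of ES cells on feeders labelled p53-defective, 8.64, 8.47 and 8.98% with ATN161, 7.18, 6.80 and 7.44% after feeder removal and 7.06, 7.01 and 7.16% on control feeders. In the feeders alone it was 6.04, 5.98 and 6.10% with the p53-defective label and 4.37, 4.15 and 4.29% in controls. The feeders and the ES cells with ATN161 did not overlap with their controls, nor did ES cells on feeders labelled p53-defective, whereas the libraries after feeder removal lay on both sides of those on control feeders. The group on feeders labelled p53-defective also spread most, at 10.2 ± 1.42% (mean ± SD, n = 3) against 7.08 ± 0.08% on control feeders, and its second library was the highest for most members. In these bulk libraries, fewer cells of a type and less RNA per cell cannot be told apart.

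**Figure D1:**
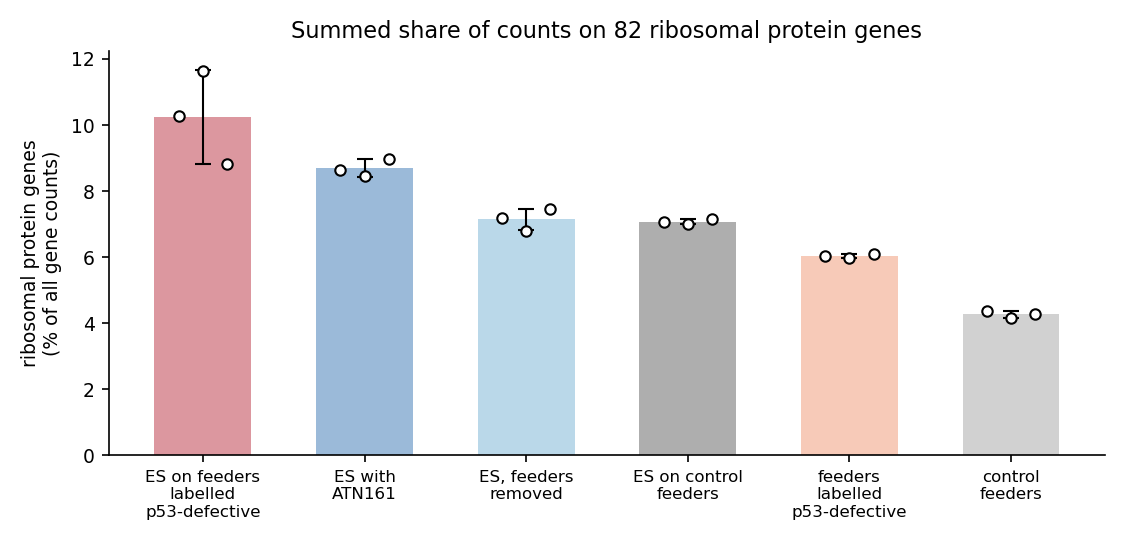
Share of all gene counts on the 82 ribosomal protein genes, in percent (y axis), for the 6 groups. Bars and error bars are mean and SD of 3 libraries and points are libraries; ES cells on feeders labelled p53-defective reached 8.82 to 11.6% against 7.01 to 7.16% on control feeders, and feeders labelled p53-defective 5.98 to 6.10% against 4.15 to 4.37% in control feeders.

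Both subunits contributed. The small-subunit share was 4.28 ± 0.61% in ES cells on feeders labelled p53-defective and 2.90 ± 0.02% on control feeders, and the large-subunit share was 5.97 ± 0.81% on feeders labelled p53-defective and 4.18 ± 0.05% on control feeders. The ratio of small-subunit to large-subunit counts was 0.709 to 0.724 on feeders labelled p53-defective, 0.703 to 0.711 with ATN161, 0.681 to 0.690 after feeder removal and 0.690 to 0.696 on control feeders. It was 0.634 to 0.646 in feeders labelled p53-defective and 0.665 to 0.673 in control feeders.

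Levels per length were compared between members with the deposited TPM (transcripts per M transcripts), summed per gene. Of the 82 members, 77 reached a mean of at least 100 TPM in every group. Rpl41, which encodes the smallest ribosomal protein, was highest in 5 groups, at 12088 ± 247 TPM in ES cells on feeders labelled p53-defective and 7376 ± 149 TPM on control feeders (SD, n = 3). In feeders labelled p53-defective, Rps18, a small-subunit head protein, was highest at 8968 ± 19 TPM, followed by Rps12 at 8049 ± 27 and Rpl41 at 7293 ± 178 TPM. In control feeders Rpl41 led with 6385 ± 165 TPM, ahead of Rps27 at 5534 ± 614 and Rpl23a at 5272 ± 152 TPM, and Rps27 and Rpl23a did not differ beyond their spread. The lowest of the 77 was Rps15a in all groups, at 142 to 196 TPM, with Rpl22 next at 205 to 293 TPM; the transcript length used for Rps15a is 5179 bases, against a median of 805 bases over the members. The members below 100 TPM were Rpl32l, Rpl3l and Rpl6l in every group, and also Rpl10l and Rpl39l in both feeder groups and in ES cells on feeders labelled p53-defective. As a description over the 77 members, which share libraries and lengths, the Spearman correlation of the levels between groups was 0.986 to 0.992 among the 3 groups of ES cells other than those on feeders labelled p53-defective. Between feeders labelled p53-defective and control feeders it was 0.905.

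ES cells with either feeder type were compared to ask what the p53 label of the feeders changes in co-culture. In ES cells on feeders labelled p53-defective, 74 of 81 members rose relative to ES cells on control feeders, where 36.6% of all genes tested were called higher, and 4 fell, where 46.7% of all genes were called lower (edgeR quasi-likelihood test, Benjamini-Hochberg adjusted p below 0.05). All 31 small-subunit genes and 43 of 50 large-subunit genes rose. The median log2 fold change of the members was 0.81, against -0.18 over all genes tested. The 3 libraries on feeders labelled p53-defective all lay above the 3 on control feeders for 73 members, against 37% of all genes, and all below for 4 members, against 47.4% of all genes.

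Rplp0, the base of the acidic stalk that recruits elongation factors, stood at 5826, 6951 and 4565 CPM on feeders labelled p53-defective and at 1986, 2123 and 2087 CPM on control feeders, and its log2 fold change was 1.48 ± 0.10 (± SE here and for all fold changes) with an adjusted p of 4.37e-12. Rplp1 (1.21 ± 0.10) and Rplp2 (0.69 ± 0.10), which form the stalk's arms, also rose. Rps28, a small-subunit protein near the messenger exit, had the largest rise, with 723, 806 and 552 CPM on feeders labelled p53-defective against 229, 210 and 227 CPM on control feeders (1.64 ± 0.11, adjusted p = 7.92e-12). Rps10, at the messenger entry side, had 1841, 2147 and 1581 CPM on feeders labelled p53-defective against 635, 637 and 651 CPM on control feeders (1.53 ± 0.08, adjusted p = 7.46e-14), and Rps18 reached 1.42 ± 0.08. None of these genes overlapped between the 2 groups.

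Large-subunit genes reached the same range. Rpl30, which binds its own transcript in yeast, had 1470, 1641 and 1201 CPM on feeders labelled p53-defective and 484, 454 and 488 CPM on control feeders (1.60 ± 0.10, adjusted p = 6.14e-13), and its groups did not overlap. Rpl36 (1.43 ± 0.10) and Rpl41 (1.4 ± 0.09) also rose. At the other end, 3 abundant large-subunit genes were not called: Rpl7a at -0.05 ± 0.10, Rpl4, which lines the exit tunnel, at 0.14 ± 0.08, and Rpl3, at the peptidyl transferase centre, at 0.18 ± 0.10. Rpl7a had 1377, 1656 and 1087 CPM on feeders labelled p53-defective and 1405, 1422 and 1445 CPM on control feeders, so that the groups overlapped. The genes that fell were Rpl34 and the paralogs Rpl39l, Rpl10l and Rpl3l.

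Rpl5 rose by 0.94 ± 0.09 and Rpl11 by 0.50 ± 0.11 on the log2 scale. Rps6, the substrate of S6 kinase, had a log2 fold change of 0.44 ± 0.09 and Rps27l, a p53 target gene, 0.28 ± 0.12 (adjusted p = 0.0306) with overlapping groups of 379, 450 and 313 CPM on feeders labelled p53-defective against 327, 304 and 311 CPM on control feeders. Rpsa, the laminin receptor precursor that is also a small-subunit protein, rose by 1.0 ± 0.09. Rps19, mutated in Diamond-Blackfan anaemia, rose by 0.89 ± 0.10, Rpl22 by 0.68 ± 0.07 and Rpl38, which in mice is needed for the translation of Hox transcripts, by 0.95 ± 0.11.

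The size of this difference depended on the scale. On the deposited TPM, which sum to the same total in each library and divide by length, limma called 44 of the 81 members higher, against 19.3% of all genes, and 20 lower, against 65.2% of all genes. The median of the members was then 0.13 and that of all genes tested -0.56, both on log2(TPM + 1). The members stood 0.70 above all genes on this scale and 0.99 above them on TMM-scaled counts. The added 1 draws the changes of genes with low TPM towards 0, so these 2 gaps are not like for like. Over the 77 abundant members the mean TPM was higher on feeders labelled p53-defective for 52 and lower for 25. Beside the members, the 141 other genes with a longest transcript under 1000 bases and at least 50 CPM had a median of 0.94, and 110 of them rose. Among the other genes at 50 CPM or more, the median was 1.59 for the 9 genes with transcripts under 500 bases, 0.81 from 500 to 700 bases, 0.90 from 700 to 1000 bases, 0.42 from 1000 to 2000 bases, 0.02 from 2000 to 4000 bases and -0.31 above 4000 bases. Members had medians of 0.96 under 500 bases (13 genes) and 0.89 from 500 to 700 bases (17 genes). From 700 to 1000 bases their median was 0.81 (24 genes) and from 1000 to 2000 bases 0.80 (19 genes). Over 77 members the Spearman correlation of change and length was -0.12, against -0.30 over 4794 other genes. The ranges of length differ, since 3 members had transcripts of 2000 to 4000 bases and 1 a longer one, against 2001 and 1706 other genes. The part of transcript length in the members' difference was not tested.

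**Figure D2:**
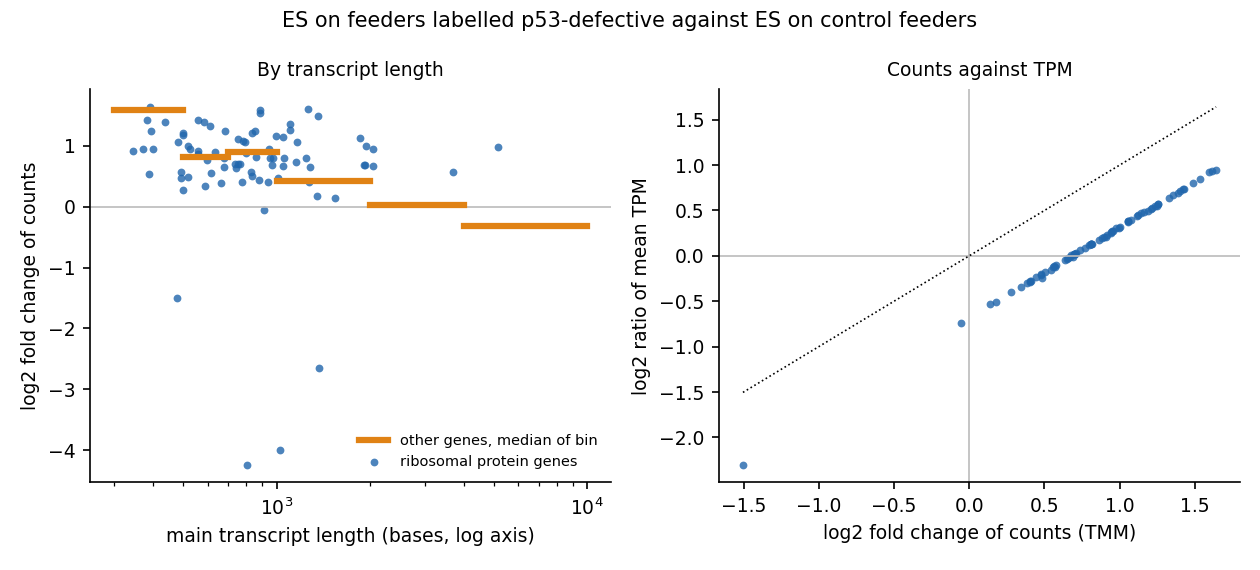
ES cells on feeders labelled p53-defective against ES cells on control feeders. Left, log2 fold change of counts (y axis) by length of the main transcript in bases (log x axis), with points for members and bars for the median of other genes in each length bin, 1.59 under 500 bases and -0.31 above 4000 bases; right, log2 ratio of mean TPM (y axis) against log2 fold change of counts (x axis) for 77 members, which lie on a line below the dotted line of equal values.

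The makeup of the cultures moved with the same comparison. The 10 fibroblast markers summed to 13660 to 20940 CPM on feeders labelled p53-defective and 5450 to 5808 CPM on control feeders, and 5 mesothelial markers to 1667 to 1740 CPM on feeders labelled p53-defective and 16.4 to 17.2 CPM on control feeders, with no marker of either list at 0. The fibroblast markers did not move together: 5 of the 10 rose, among them Col1a1 with a mean of 8229 CPM on feeders labelled p53-defective and 1516 CPM on control feeders, and 3 fell, among them Postn with 31.6 CPM on feeders labelled p53-defective and 119.9 CPM on control feeders. Macrophage markers, of which 4 of 9 rose and 0 fell, summed to 44.5 to 48.5 CPM on feeders labelled p53-defective and 10.5 to 11.6 CPM on control feeders, where Tyrobp was at 0. ES markers, none of them at 0, were lower as given above, and scaling on 432 ES-specific genes (at least 10 CPM both with ATN161 and after feeder removal, and at least 8-fold above both kinds of feeders) moved the median of all genes to 3.20 and that of the members to 4.19. The part of these shifts in the members' difference was not tested.

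Each co-culture was also set against its own kind of feeders and ES cells after feeder removal. ES cells on feeders labelled p53-defective had a higher mean CPM than both feeders labelled p53-defective and ES cells after feeder removal for 75 of 81 members (92.6%), against 31.9% of all genes tested and 48 of 78 mitochondrial ribosomal protein genes (61.5%). For 66 of the 82 members, each of the 3 libraries lay above all 6 of those libraries. The share of all genes on this stricter measure, used again below, was not computed. For ES cells on control feeders, 14 of 81 members (17.3%) had a mean above both control feeders and ES cells after feeder removal, against 22.2% of all genes, and 2 members had all 3 libraries above all 6. Rplp0, for example, averaged 5781 CPM in ES cells on feeders labelled p53-defective, 2196 CPM after feeder removal and 2789 CPM in feeders labelled p53-defective.

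The feeders alone were compared next, to show what the label brings before ES cells are added. In feeders labelled p53-defective, 47 of 81 members rose relative to control feeders, where 35.9% of all genes tested were called higher, and 5 fell, where 38.4% of all genes were called lower. Of the large-subunit genes 33 of 50 rose and of the small-subunit genes 14 of 31. The median log2 fold change was 0.30, against -0.01 over all genes and 0.15 over the 141 other short, abundant genes. The libraries of the 2 groups did not overlap for 57 members above, against 35.5% of all genes, and 8 below, against 38.5%. On TPM 54 members were called higher, against 33.7% of all genes, and 9 lower, against 38.9% of all genes.

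Rpl30 was highest in this comparison, with 784, 750 and 857 CPM in feeders labelled p53-defective and 356, 354 and 378 CPM in control feeders (1.14 ± 0.10). Rpl8, next to the peptidyl transferase centre, had 1167, 1184 and 1286 CPM in feeders labelled p53-defective against 584, 540 and 559 CPM in control feeders (1.11 ± 0.09), and Rpl37 and Rps18 reached 1.07 ± 0.11 and 1.06 ± 0.08. These 4 were the members with at least a 2-fold rise. Rpl5 rose by 0.87 ± 0.09 (1465, 1617 and 1527 CPM in feeders labelled p53-defective against 874, 786 and 852 CPM in control feeders), whereas its partner Rpl11 stood at 0.07 ± 0.11 (adjusted p = 0.613) with overlapping groups. Rplp0 rose by 0.78 ± 0.10, Rps6 by 0.57 ± 0.09 and Rpsa by 0.36 ± 0.09. Rps19 (0.07 ± 0.10), Rpl22 (0.04 ± 0.07) and Rps4x (0.15 ± 0.09) were not called.

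Rps27l is a transcriptional target of p53, and its level in the feeders was not called lower. It had 181, 167 and 158 CPM in feeders labelled p53-defective and 140, 146 and 144 CPM in control feeders, a log2 fold change of 0.24 ± 0.12 with an adjusted p of 0.0753, and all 3 libraries with the label lay above the controls. Its partner Rps27, the constitutive form, stood at -0.19 ± 0.09 (adjusted p = 0.0616). Mdm2, a target of p53 and the binding partner of free RPL5 and RPL11, averaged 164 CPM in feeders labelled p53-defective and 437 CPM in control feeders (-1.42 ± 0.07).

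Rpl24, a protein at the intersubunit bridge whose loss of 1 copy gives the Belly spot and tail mouse, had the largest fall of an abundant member without a near-identical copy in the table. It had 237, 242 and 274 CPM in feeders labelled p53-defective and 403, 405 and 429 CPM in control feeders, a log2 fold change of -0.72 ± 0.09 (adjusted p = 1.1e-07). In the co-cultures the direction was the opposite, with 864, 962 and 713 CPM on feeders labelled p53-defective against 476, 471 and 505 CPM on control feeders (0.81 ± 0.09), and the difference between the 2 effects was 1.52 ± 0.12 (adjusted p = 1.34e-10). Rps29 (-0.38) and Rpl29 (-0.24) also fell in the feeders, by small amounts: Rpl29 was not called on total counts or with DESeq2's Wald test, and without the second library of either feeder group neither was. The fibroblast markers summed to 4232 to 6332 CPM in feeders labelled p53-defective and 29630 to 36490 CPM in control feeders, and mesothelial markers to 1214 to 1785 CPM in feeders labelled p53-defective and 41.4 to 48.6 CPM in control feeders. Of 9 macrophage markers 7 fell and 2 rose, with sums of 70.7 to 86.4 CPM in feeders labelled p53-defective, where Adgre1, Fcer1g, Ptprc and Tyrobp were at 0, and 124 to 170 CPM in control feeders, where none was. The part of this difference in makeup in the members' values was not tested.

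**Figure D3:**
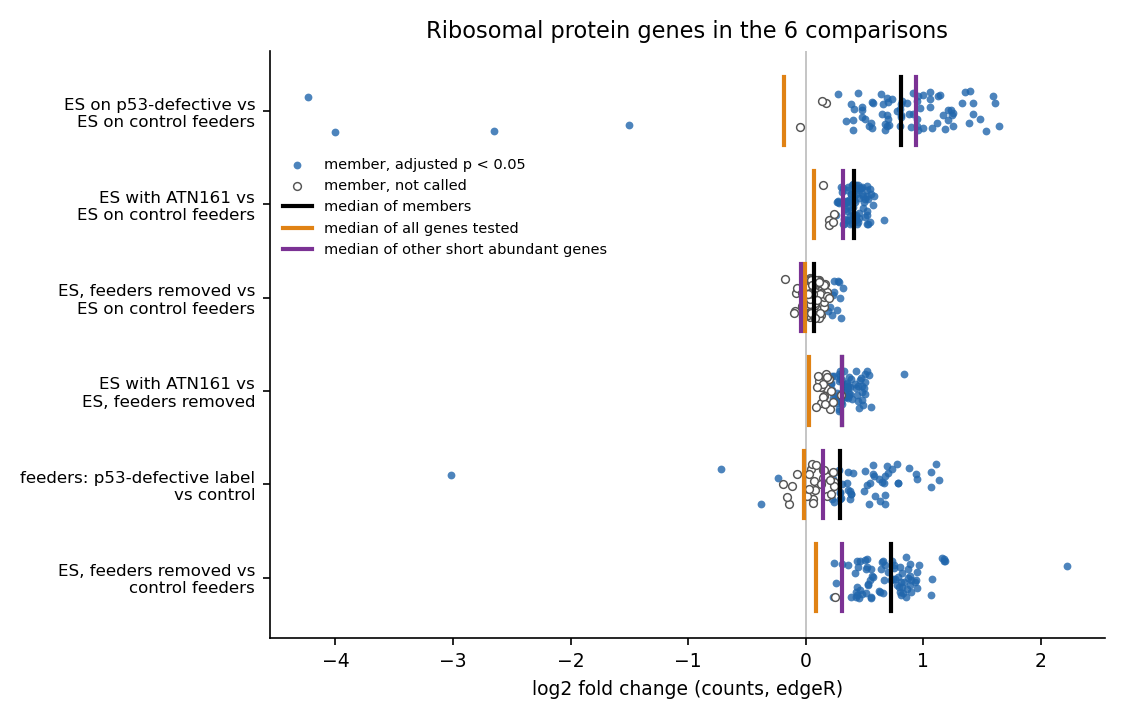
Log2 fold change of counts (x axis) of the tested members in the 6 pairwise comparisons, without members at 0 counts in a group. Filled points were called and open points were not, and vertical lines mark the medians of the members (black), of all genes tested (orange) and of 141 other short, abundant genes (purple); for ES cells on feeders labelled p53-defective against ES cells on control feeders these are 0.81, -0.18 and 0.94.

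Whether the label had the same effect on the members in co-culture as in the feeders was tested by the difference of the 2 effects in the same fit. The effect in co-culture, as a signed log2 value, was larger for 59 of 81 members, against 38.8% of all genes tested. It was smaller for 3, against 34.8% of all genes. For Rpl34 and Rpl39l, which fell in both comparisons, larger means a smaller fall in co-culture. The median difference was 0.57, against 0.04 over all genes and 0.93 over the 141 other short, abundant genes. Rps28 (1.35 ± 0.16), Rpl39 (1.28 ± 0.17), Rpl41 (1.17 ± 0.13), Rps27 (1.11 ± 0.13) and Rps26 (0.999 ± 0.13) had large differences besides Rpl24. The members with a smaller effect in co-culture were Rpl7a (-0.68 ± 0.14), Rpl3 (-0.50 ± 0.14) and Rpl6 (-0.38 ± 0.13). On TPM the split turned, with 16 members called larger, against 26.1% of all genes, and 30 smaller, against 55.3%, and the median was -0.08 beside -0.44 over all genes; on total counts 26 were larger, against 29.6% of all genes, and 15 smaller, against 44.3%.

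ES cells after feeder removal were set against control feeders to compare the 2 cell types, with fibroblast markers still present after removal. These markers summed to 3223 to 3741 CPM after feeder removal and 29630 to 36490 CPM in control feeders. Of 81 members 80 rose in the ES cells, where 45.1% of all genes tested were called higher, and 0 fell where 40.8% of all genes were called lower. The median was 0.73 on the log2 scale, against 0.09 over all genes and 0.31 over the other short, abundant genes. On TPM 76 rose, against 40.3% of all genes, and 0 fell, against 45% of all genes. Of the scalings tried, only that on ES-specific genes, which are low in feeders by their definition, turned the direction, and its median of -4.96 stood 0.63 above that of all genes. Rpl39, at 0.25 ± 0.12 (adjusted p = 0.0592), was the member not called.

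The largest differences among abundant members were close to each other. Rps27l had 318, 263 and 396 CPM after feeder removal against 140, 146 and 144 CPM in control feeders (1.18 ± 0.12), Rpl7a 1591, 1567 and 1523 CPM after removal against 702, 663 and 708 CPM in control feeders (1.17 ± 0.10) and Rpl8 1303, 1226 and 1268 CPM after removal against 584, 540 and 559 CPM in control feeders (1.17 ± 0.09). All libraries of the ES cells lay above those of the feeders for these genes. Rpl3 stood at 1.07 ± 0.10, Rpsa at 0.88 ± 0.09, Rplp2 at 0.80 ± 0.10, Rpl11 at 0.75 ± 0.11 and Rpl5 at 0.56 ± 0.09, and at the low end Rpl10 at 0.23 ± 0.09.

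Removal of the feeders and their replacement by ATN161 were each compared with ES cells on control feeders; these comparisons share the libraries on control feeders with each other and with the co-culture comparison above. After feeder removal, 12 of 81 members rose, where 25.5% of all genes tested were called higher, and 0 fell, where 26.5% were called lower, with a median of 0.07 against -0.01 over all genes. The members that rose did so by little: Rpl21 had 796, 791 and 761 CPM after removal and 605, 614 and 668 CPM on control feeders (0.32 ± 0.08, adjusted p = 0.00262), and Rps4x (0.30 ± 0.09), Rpl7 (0.29 ± 0.08) and Rps24 (0.28 ± 0.08) followed. The counts were unstable: with 1 library left out, 1 to 6 members rose, whichever of the 6 libraries it was. The share of all genes called in these refits is not given here. On TPM 16 were called higher, against 19.6% of all genes, and 2 lower, against 30.3% of all genes. The median was -0.01 on total counts and -0.19 with scaling on ES-specific genes. Of the 10 fibroblast markers 5 fell and 1 rose, with sums of 3223 to 3741 CPM after removal and 5450 to 5808 CPM on control feeders. All 10 ES markers rose. The part of these marker changes in the members' values was not tested.

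With ATN161 in place of feeders, 76 of 81 members rose relative to ES cells on control feeders, where 33.6% of all genes tested were called higher, and 0 fell, where 28% were called lower. The rises were uniform, with a median of 0.41 and quartiles of 0.35 and 0.48, against a median of 0.07 over all genes and 0.32 over the other short, abundant genes. All 3 libraries with ATN161 lay above those on control feeders for 80 members, against 41.1% of all genes. Rpsa had 3282, 3228 and 3387 CPM with ATN161 and 2151, 2249 and 2244 CPM on control feeders (0.58 ± 0.09, adjusted p = 1.8e-05). Rps4x, the X-linked form of a small-subunit protein, had 1591, 1487 and 1678 CPM with ATN161 against 1033, 1046 and 1151 CPM on control feeders (0.56 ± 0.09), and Rps2, at the messenger entry, and Rps16, whose tail reaches the transfer RNA, rose by 0.55 ± 0.10 each. Rpl5 rose by 0.53 ± 0.09 and Rplp0 by 0.43 ± 0.10. The members not called were Rps27l (0.15 ± 0.12), Rpl17 (0.20 ± 0.09), Rpl24 (0.20 ± 0.09), Rpl37 (0.23 ± 0.11) and Rpl11 (0.24 ± 0.11).

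Of the 10 ES markers, none of them at 0, 9 rose and 1 fell, with sums of 5180 to 5399 CPM with ATN161 and 2934 to 3082 CPM on control feeders. All 10 fibroblast markers fell, with sums of 694 to 765 CPM with ATN161 and 5450 to 5808 CPM on control feeders. The part of these shifts in the members' rises was not tested. With scaling on ES-specific genes the median of all genes was -0.36 and that of the members -0.02, with 0 members called higher, against 4.62% of all genes, and 2 lower, against 50.2%. On TPM 46 members rose, against 15.9% of all genes, and 0 fell, against 38% of all genes.

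ES cells with ATN161 and ES cells after feeder removal were also compared directly. With ATN161, 63 of 81 members rose relative to ES cells after feeder removal, where 28.6% of all genes were called higher, and 0 fell, where 26.8% were called lower; the median was 0.31, against 0.03 over all genes and 0.31 over the other short, abundant genes. Rpsa (0.55 ± 0.09), Rpl18 (0.52 ± 0.09), Rpl13a (0.51 ± 0.09) and Rpl35a (0.50 ± 0.09) had large differences, whereas Rps24 (0.10 ± 0.08), Rpl6 (0.10 ± 0.09) and Rpl4 (0.15 ± 0.08) were not called. Leaving out the second library after feeder removal, the lowest of its group in the share of the members, reduced the count to 33. The share of all genes called in that refit is not given here. The makeup moved with this comparison too: 10 of 10 fibroblast markers fell, with sums of 694 to 765 CPM with ATN161 and 3223 to 3741 CPM after feeder removal, and of the ES markers 6 of 10 rose and 3 fell, with sums of 5180 to 5399 CPM with ATN161 and 4232 to 4384 CPM after feeder removal. With scaling on ES-specific genes 19 members were called higher, against 13.5% of all genes, and 0 lower, against 34% of all genes. With curated transcripts alone 37 were called higher, against 18.7% of all genes, and 0 lower, against 22.2%. The part of the makeup in the members' values was not tested. On TPM 31 members were called higher, against 15.7% of all genes, and 1 lower, against 34% of all genes.

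Rpl34, a large-subunit gene on chr3:130726827-130730398 (GRCm38), had the largest fall of an abundant member in both comparisons of the p53 label. Its level was 33.5, 33.7 and 25.4 CPM in feeders labelled p53-defective and 248, 248 and 253 CPM in control feeders (-3.02 ± 0.11, adjusted p = 6.95e-17). In the co-cultures, whose RNA is a mixture, it was 115, 137 and 98.6 CPM on feeders labelled p53-defective and 321, 331 and 343 CPM on control feeders (-1.50 ± 0.10, adjusted p = 2.54e-12). The table also holds Rpl34-ps1 on chr6:71124589-71125001 (GRCm38), whose transcript is 99.4% identical to the whole coding sequence of Rpl34.

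Counts of the copy were high in the 6 libraries in which Rpl34 was low. Rpl34-ps1 had 3841, 4275 and 3838 counts in feeders labelled p53-defective and 3, 0 and 2 counts in control feeders. In ES cells on feeders labelled p53-defective it had 9837, 10604 and 8389 counts, and at most 3 counts in any library of the other ES cell groups. Of the counts on the pair, Rpl34 held 9.77 to 12.1% in feeders labelled p53-defective and 16.2 to 17.1% in ES cells on them, against 99.9% or more in all other libraries. The pair summed to 289, 291 and 273 counts per M in feeders labelled p53-defective and to 248, 245 and 249 counts per M in control feeders. In the co-cultures it summed to 613, 669 and 527 counts per M on feeders labelled p53-defective and to 351, 359 and 373 counts per M on control feeders. With near-identical copies summed, Rpl34 stood at 0.13 ± 0.08 in the feeders (adjusted p = 0.163) and at 1.08 ± 0.08 in the co-cultures (adjusted p = 2.85e-11), so that the pair did not fall. Reads of such a pair cannot be assigned with certainty, and the origin of the split was not tested.

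**Figure D4:**
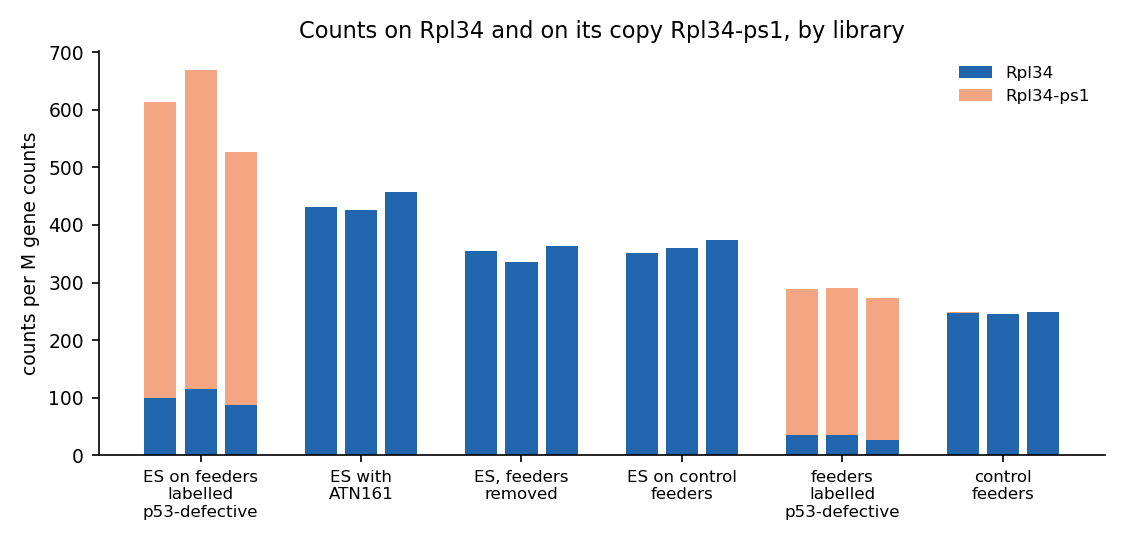
Counts per M gene counts (y axis) on Rpl34 (blue) and its near-identical copy Rpl34-ps1 (orange), stacked, for each of 3 libraries in the 6 groups (x axis). The copy holds most of the pair's counts in the 6 libraries with the p53-defective label, where Rpl34 keeps 9.77 to 17.1%, and almost none elsewhere.

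A search at 95% identity over 80% of the coding sequence found 11 copies of 10 members in the table. Apart from Rpl34-ps1, the most counted were BC004004, a copy of Rpl21, with up to 1884 counts, and Wdr89, which shares sequence with Rplp2, with up to 495 counts; the counts of members with such copies are uncertain to that extent. Whether counting used strand is not stated, so reads from antisense transcripts cannot be told apart from those of members.

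The paralogs that replace a ubiquitous protein in particular tissues separated the groups. Rpl10l is an autosomal retrogene of the X-linked Rpl10 that takes over in mouse male meiosis. It had 3.76, 5.80 and 4.22 CPM in ES cells on feeders labelled p53-defective, 102, 104 and 110 CPM with ATN161, 78.8, 73.0 and 80.4 CPM after feeder removal and 72.7, 74.6 and 73.5 CPM on control feeders, and 0 counts in all 6 libraries of feeders. The fall on feeders labelled p53-defective was -4.00 ± 0.11 (adjusted p = 1.87e-16), whereas Rpl10 rose there by 0.88 ± 0.09. As a share of the TPM of both genes, Rpl10l was 0.17 ± 0.03% in ES cells on feeders labelled p53-defective, 5.24 ± 0.05% with ATN161, 4.48 ± 0.19% after feeder removal and 4.77 ± 0.07% on control feeders (SD, n = 3). Against the floor of 3 counts over the group, its 4288 counts after feeder removal were at least 1404-fold higher than in control feeders; such floors and intervals cover counting error only.

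Rpl39l, a paralog of Rpl39 found in mouse spermatogenic cells and ES cells, followed the same order among ES cells and also split the feeders. It had 3.15, 4.06 and 2.26 CPM in ES cells on feeders labelled p53-defective, 88.7, 85.4 and 93.0 CPM with ATN161, 61.5, 53.6 and 68.8 CPM after feeder removal and 58.3, 59.8 and 60.0 CPM on control feeders. In the feeders it had 0 counts in the 3 libraries labelled p53-defective and 11.6, 12.5 and 15.3 CPM in controls, 686 counts in all, so that it was at least 205-fold lower in the feeders labelled p53-defective. The fall in ES cells on feeders labelled p53-defective was -4.24 ± 0.15 (adjusted p = 3.35e-16), and Rpl39 rose there by 1.33 ± 0.12. Rpl39l made up 0.13 ± 0.02% of the TPM of the pair in ES cells on feeders labelled p53-defective, 6.72 ± 0.20% with ATN161, 5.95 ± 0.12% after feeder removal and 5.82 ± 0.09% on control feeders.

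Rpl3l, the paralog of Rpl3 in striated muscle, was rare. It had 12 counts over the 3 libraries of ES cells on feeders labelled p53-defective and 97 on control feeders, a ratio per M counts of 0.12 with a 95% counting interval from 0.06 to 0.22, and 146 with ATN161. It had 77 counts after feeder removal and 0 in control feeders, at least 25.2-fold more. The 10 skeletal muscle markers summed to 73.8 to 90.8 CPM on feeders labelled p53-defective and 21.0 to 22.1 CPM on control feeders, with Myod1 and Myog at 0 counts on feeders labelled p53-defective and Myl1 on control feeders. Of the 5 of them that passed the filter, Des and Acta1 rose and Actn2 and Myh3 fell, and most of the sum was Des, with a mean of 75.7 CPM on feeders labelled p53-defective and 11.7 CPM on control feeders. ES markers fell in the same comparison as these 3 paralogs, with a median of -3.86 over 10 genes, and 5 germ cell markers, none at 0, summed to 30.7 to 31.2 CPM on feeders labelled p53-defective and 166 to 179 CPM on control feeders. With scaling on ES-specific genes, a set that Rpl10l meets the rule of, the falls were -0.63 for Rpl10l and -0.86 for Rpl39l (adjusted p of 4.82e-05 and 7.19e-06), and Rpl3l stood at 0.69 (adjusted p = 0.163).

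Rps27l, the paralog of Rps27, was counted in all groups. It held 17.8 ± 0.8% of the TPM of the pair with Rps27 in ES cells on feeders labelled p53-defective, 22.8 ± 1.3% with ATN161, 24.3 ± 4.9% after feeder removal and 24.9 ± 1.1% on control feeders. In the feeders the share was 22.2 ± 1.3% with the p53-defective label and 17.6 ± 1.8% in controls. The libraries with the label lay below their controls in co-culture (16.9 to 18.4% with the label against 23.9 to 26.1% without) and above them in the feeders (20.8 to 23.4% with the label against 16.5 to 19.7% without). The other two low members were Rpl32l, 96.0% identical to Rpl32 over its coding sequence, at 14.8 to 21.6 CPM in ES cells on feeders labelled p53-defective against 8.86 to 9.97 CPM on control feeders, and Rpl6l, with at most 11 counts in any group of 3 libraries.

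**Figure D5:**
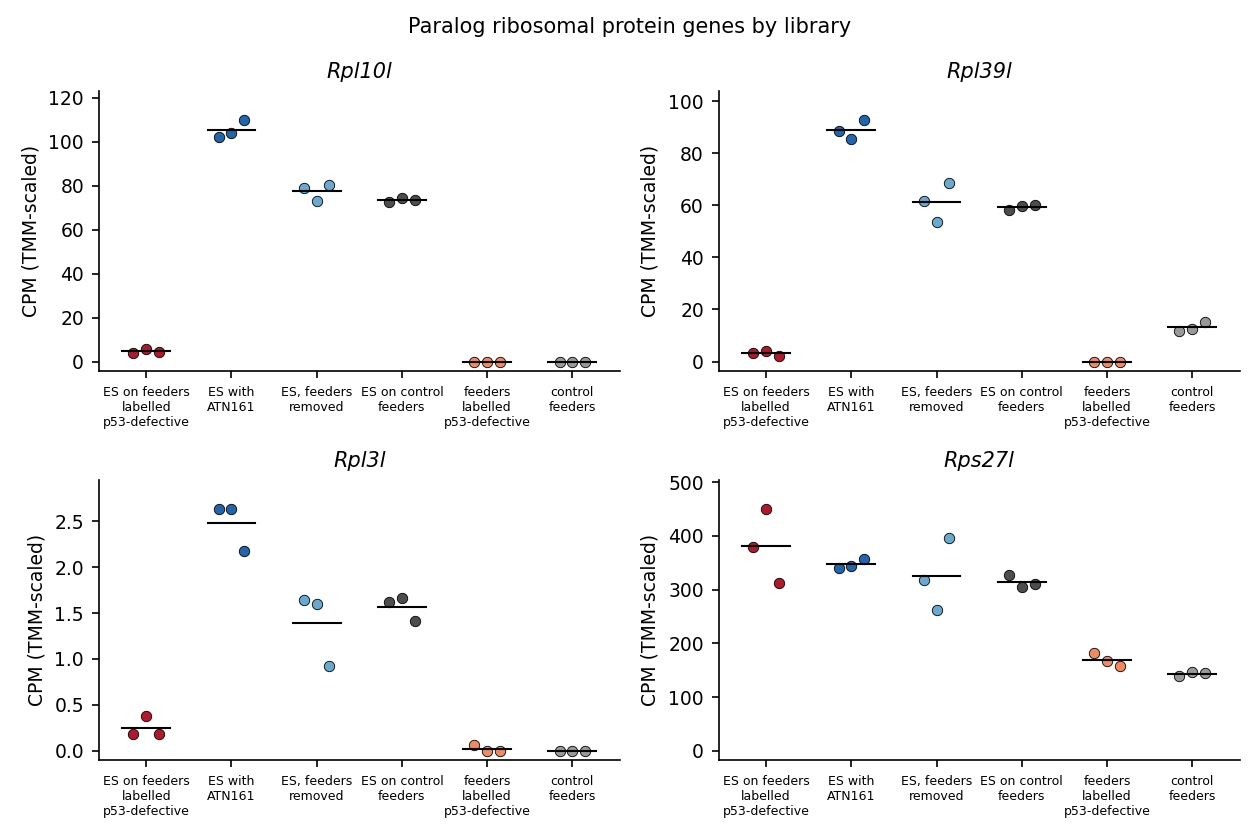
TMM-scaled CPM (y axis) of 4 paralogs in each library of the 6 groups (x axis); points are libraries and lines are means of 3. In ES cells on feeders labelled p53-defective Rpl10l and Rpl39l were at most 5.80 and 4.06 CPM, against 72.7 to 110 and 53.6 to 93.0 CPM in the 3 other ES cell groups, whereas Rps27l was present in every library.

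Genes that work beside the ribosomal proteins were read from the same fit. Of all genes tested, 36.6% were called higher and 46.7% lower in ES cells on feeders labelled p53-defective relative to control feeders. In feeders labelled p53-defective these shares were 35.9% and 38.4%. With ATN161 relative to ES cells on control feeders they were 33.6% and 28%. The counts of each list below stand beside these shares. Of 7 ribosome components outside the symbol rule, 5 rose and 2 fell in ES cells on feeders labelled p53-defective relative to control feeders. The fusion gene Fau, which encodes a ubiquitin-like protein and RPS30, averaged 1696 CPM on feeders labelled p53-defective and 387 CPM on control feeders (2.13 ± 0.10). Rack1, a signalling scaffold on the small subunit, rose by 0.97 ± 0.08. The paralogs Rpl7l1 (-0.45 ± 0.11) and Rpl22l1 (-0.29 ± 0.11) fell. On TPM 3 of the 7 were higher and 3 lower, against 19.3% and 65.2% of all genes. With scaling on ES-specific genes, which raised the median of all genes as given above, all 7 were higher. In feeders labelled p53-defective 6 of the 7 rose and 0 fell, and all 7 rose with ATN161 relative to control feeders.

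Ribosome biogenesis genes, which make and process ribosomal RNA in the nucleolus, are a separate list from the ribosomal proteins. In feeders labelled p53-defective 43 of 45 rose and 0 fell relative to control feeders, with a median of 1.10; Nolc1, a nucleolar chaperone, averaged 336 CPM in feeders labelled p53-defective and 97.2 CPM in control feeders (1.79 ± 0.11) and Ddx10 80.4 CPM with the label and 22.9 CPM in control feeders (1.81 ± 0.12). In ES cells on feeders labelled p53-defective 35 fell and 4 rose relative to control feeders, with a median of -0.73, at -1.06 on total counts and -1.35 on TPM, but at 2.67 with scaling on ES-specific genes, where the median of all genes was 3.20. Dkc1, the pseudouridine synthase, averaged 28.9 CPM on feeders labelled p53-defective and 108.5 CPM on control feeders (-1.91 ± 0.14), and Utp15, a subunit of the small-subunit processome, 23.4 CPM on feeders labelled p53-defective and 76.3 CPM on control feeders (-1.70 ± 0.09). The biogenesis genes stood below all genes under each of these scalings in co-culture and the ribosomal protein genes above. The difference of the 2 effects was smaller than 0 and called for 44 of 45 biogenesis genes, against 34.8% of all genes. Its median was -1.73, against 0.04 over all genes. With scaling on ES-specific genes the median was 1.26. That scaling rests on genes low in feeders and shifts all genes, whose median difference under it is not given here, so 1.26 is not read as a turn. Relative to ES cells on control feeders, 38 of the 45 rose after feeder removal, against 25.5% of all genes and 12 of 81 ribosomal protein genes. With ATN161 43 of the 45 rose, against 33.6% of all genes.

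The list of elongation factors and other RNAs known for a TOP tract held 20 genes. In ES cells on feeders labelled p53-defective 16 rose and 2 fell relative to control feeders (median 0.58). On TPM the median was -0.10, with 6 higher, against 19.3% of all genes, and 8 lower, against 65.2% of all genes. Eef1g averaged 3321 CPM on feeders labelled p53-defective and 1340 CPM on control feeders (1.31 ± 0.08). Eef2 averaged 7774 CPM on feeders labelled p53-defective and 3182 CPM on control feeders (1.29 ± 0.09), and Eif3h 722 CPM with the label and 269 CPM on control feeders (1.43 ± 0.10). Nap1l1 (-0.22 ± 0.07) and Eif4a2 (-0.23 ± 0.08) fell. In the feeders labelled p53-defective 16 rose and 2 fell, led by Hnrnpa1 (1.91 ± 0.07) and Pabpc1 (1.55 ± 0.08), whereas Tpt1 fell by 0.50 on the log2 scale. Of 11 regulators, 3 rose and 8 fell in the co-cultures. With scaling on ES-specific genes, which raised the median of all genes as given above, all 11 were higher. Myc averaged 100 CPM in ES cells on feeders labelled p53-defective and 14.45 CPM on control feeders (2.79 ± 0.13), and 302 CPM in feeders labelled p53-defective and 44.9 CPM in control feeders (2.75 ± 0.12). Larp1, which binds the TOP tract, fell in the co-culture (-0.94 ± 0.09) and rose in the feeders (0.43 ± 0.09), and Mtor fell in both (-0.90 ± 0.09 in co-culture and -0.46 ± 0.09 in the feeders).

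As a description, members with and without a pyrimidine run from an annotated first base were set side by side. Runs that begin some bases away, as for Rpl7a, were not counted, so members without a run can still have a TOP tract. Over the members in the promoter table other than Rpl34, Rpl10l, Rpl39l and Rpl3l, the median change in ES cells on feeders labelled p53-defective was 0.95 (0.44 to 1.53) for the 14 members with a run, such as Rps18, Rps10 and Rps6 above, and 0.81 (-0.05 to 1.64) for the 43 without. In the feeders the medians were 0.39 with a run and 0.25 without, and with ATN161 relative to control feeders 0.39 with a run and 0.40 without.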

How the data were processed

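RNA had been isolated with Trizol and made into TruSeq mRNA libraries, per the labels' protocols. The authors deposited 1 table of 75416 RefSeq transcripts (32625 NM and 42791 XM) with estimated counts per library that are not normalised. The same deposited table holds TPM and FPKM computed by the authors per transcript, and read counts that the authors rescaled between libraries (unit treated as signal); FPKM and rescaled counts were not used. Tools and builds given without roles, per the submitters' processing notes, are StringTie 1.3.3b, HISAT2 2.1.0, DESeq2 1.2.10, SAMtools 1.4 and mm10/GRCm38. No header or label says whether counting used strand.

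Expected counts and TPM were summed per gene identifier over 19630 genes, and counts were rounded to whole numbers (89.3% of sums above 0 were whole within 0.05). Libraries held 15.1 to 19.8 M counts, and no pair of replicates agreed within sampling noise. edgeR 4.0.16 (R 4.3.3) fitted all 18 libraries with 1 coefficient per group after TMM scaling and filterByExpr, which kept 15389 genes and removed 4241. Calls are quasi-likelihood tests with Benjamini-Hochberg adjusted p below 0.05 over all genes tested, for 6 pairwise contrasts and the difference of the 2 effects of the p53 label. Alternatives were DESeq2 1.42.0 size factors and its Wald test, limma-voom (limma 3.58.1), total counts, ES-specific scaling, other filters, curated transcripts, only the groups compared, a replicate block and leaving out each library; TPM in limma as log2(TPM + 1) with trend, near-identical copies summed (BLAST+ 2.17.0+) and TMM factors without members were chosen after seeing the data. The scripts were tested on simulated data.

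The members and lists were chosen with earlier results of these data known. Members were named when they were paralog pairs or had known roles, were among the 8 largest rises or falls per comparison without overlap, or stood at the ends of the TPM order; up to 4 genes were named per other list, by smallest p. Genes named outside this rule were chosen after their values were seen. Same-numbered replicates did not deviate together (3 of 45 correlations above 0.1, from -0.113 to 0.223), so the numbers were not treated as pairs. Rps4l, which meets the symbol rule in the RefSeq annotation, was not analysed here. Some genes that the naming rule selects are not reported here.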

Additional observations from a re-analysis of the deposited data

Results flagged for a closer look

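The effect of the p53 label in the co-cultures was tested against its effect in the feeders alone with an edgeR interaction contrast. At an adjusted p below 0.05 the signed log2 effect was larger in co-culture for 59 of 81 members, against 38.8% of all genes tested. It was smaller for 3, against 34.8% of all genes. Rpl34 and Rpl39l, among the 59, fell in both comparisons and by less in co-culture. The 2 groups of ES cells and the 2 groups of feeders are 3 libraries each, and all values here are log2 differences between the 2 effects on TMM-scaled counts.

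Members of the stalk differed by 0.70 for Rplp0, 0.92 for Rplp1 and 0.33 for Rplp2. Rpl24 differed by 1.52, with a fall in the feeders and a rise in the co-cultures. Rpl34 differed by 1.51, and by 0.96 when summed with its copy Rpl34-ps1. Of the other small-subunit genes, Rps28 differed by 1.35, Rps27 by 1.11, Rps26 by 0.999, Rps19 by 0.83, Rps4x by 0.65 and Rpsa by 0.64. Of the large-subunit genes, Rpl39 differed by 1.28, Rpl41 by 1.17, Rpl22 by 0.63, Rpl10 by 0.57, Rpl38 by 0.55 and Rpl11 by 0.44. The effect in co-culture was smaller for Rpl7a at -0.68, Rpl3 at -0.50 and Rpl6 at -0.38. The 141 other short, abundant genes had a median difference of 0.93, and on TPM the members' median was -0.08 beside -0.44 over all genes tested; the part of transcript length and culture makeup in these differences was not tested.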

How the results depend on the processing

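Scaling moved the level of all genes as well as of the members. On TPM in limma, the feeders gave 9 members lower, ES cells on feeders labelled p53-defective 44 higher and 20 lower, feeder removal 2 lower, ATN161 46 higher against control feeders and 31 higher and 1 lower against feeder removal, and the difference of the 2 label effects 16 higher and 30 lower. Scaling on ES-specific genes gave 73 higher and 3 lower in the feeders (49.6% and 25.9% of all genes), 2 lower in ES cells on feeders labelled p53-defective (2.67%), 0 higher and 14 lower after feeder removal (9.51% and 42.9%), 0 higher and 2 lower with ATN161 (4.62% and 50.2%), 19 higher with ATN161 against feeder removal (13.5%), 1 higher and 79 lower in ES cells after feeder removal against control feeders (3.06% and 91.4%), and 0 lower for the difference of the label effects (3.37%). For single genes the comparison of cell types was not rescaled in this way, since the ES-specific genes are defined by it. These genes are by definition at least 8-fold lower in both kinds of feeders. Scaling on them therefore gives no usable reference between the 2 feeder groups or for the difference of the label effects, and those values are descriptions only. Total counts gave 26 higher and 15 lower for the difference of the label effects (29.6% and 44.3% of all genes), where limma-voom and DESeq2's Wald test gave 5 lower each (38.9% and 37.2%). After feeder removal, 5 members were higher on total counts (19.9% of all genes), without a filter (16.8%) and with a filter of 5 CPM in 3 libraries (24.2%), 4 with curated transcripts alone (15.8%) and 25 in a fit of only the groups compared (33.1%). With curated transcripts alone, ATN161 gave 37 higher against feeder removal (18.7%). The cause of these changes was not tested.

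Leaving out 1 library gave 44 to 56 members higher and 3 to 5 lower in the feeders, 73 to 77 and 4 to 5 in the co-culture comparison, 1 to 6 higher after feeder removal, 57 to 75 with ATN161, 33 to 61 with ATN161 against feeder removal, 79 to 81 between the cell types, and 55 to 68 and 3 to 6 for the difference of the label effects. The 6 lower came without the second library of the co-culture labelled p53-defective, and the 3 lower in the feeders without the second library of either group. The shares of all genes called with 1 library left out, or with the replicate block below, are not given here. The changes in these counts are therefore not read as particular to the members. The share of the members became 12.6% in ES cells on the feeders with the label, 10.04, 8.23 and 8.20% with ATN161, after removal and on control feeders, and 7.08 and 5.18% in feeders with the label and control feeders when the 100 highest other genes left the denominator. With curated transcripts alone it was 9.56, 8.01 and 7.85% in the same 3 ES groups and 6.85 and 4.78% in the feeders. With the replicate block the calls were 47 higher and 5 lower in the feeders, 74 and 4 in co-culture, 11 higher after removal, 76 and 61 with ATN161, 80 between cell types, and 58 and 3 for the difference; the replicate numbers did not pair the samples.

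Values of single genes changed sign as follows. Summed with copies, Rpl34 stood at 0.13 in the feeders and 1.08 in co-culture. With ES-specific scaling, Rps29 stood at 0.021 and Rpl29 at 0.15 in the feeders, Rpl3l at 0.69 and Rpl34 at 1.88 in co-culture, Rpl5 at -0.013 and Rps26 at -0.017 after removal, and with ATN161 against control feeders Rps27 at -0.11, Rpl39 at -0.070, Rpl10 at -0.054, Rplp0 at -0.0035, Rplp2 at -0.090, Rps6 at -0.15, Rps19 at -0.10, Rpl22 at -0.032 and Rpl38 at -0.0445. The difference of the label effects became 2.30 for Rpl7a, 2.49 for Rpl3, 2.60 for Rpl6 and 2.85 for Rps6. Because the ES-specific genes are low in feeders, these differences and the feeder values of Rps29 and Rpl29 are not read as turns. On total counts, Rps27l stood at -0.065 in co-culture, and the difference at -0.38 for Rps27l, -0.35 for Rpl5 and -0.0885 for Rplp2. On TPM, co-culture values were -0.40 for Rps27l, -0.51 for Rpl3, -0.18 for Rpl11, -0.010 for Rplp2 and -0.24 for Rps6, Rps27 stood at -0.0033 with ATN161 against feeder removal, and the difference was -0.61 for Rps27l, -0.066 for Rpl10, -0.57 for Rpl5, -0.17 for Rpl11, -0.33 for Rplp2, -1e-04 for Rpsa and -0.10 for Rpl38. Of the remaining single-gene values under alternatives, 3141 kept direction and side of the threshold, 189 lost the call and 52 gained it. Depth limits only Rpl3l, Rpl6l and the paralogs in feeders.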

Other observations

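The proteins of the mitochondrial ribosome are encoded by a separate set of nuclear genes, of which 78 were tested. In ES cells with ATN161, 68 of the 78 rose and 0 fell relative to ES cells on control feeders, where 33.6% and 28% of all genes were called higher and lower, with a median log2 fold change of 0.47; Mrpl42 averaged 81.7 CPM with ATN161 and 44.8 CPM on control feeders (0.87 ± 0.08, SE) and Mrpl15 205 CPM with ATN161 and 125 CPM on control feeders (0.71 ± 0.07). In feeders labelled p53-defective 45 rose and 11 fell relative to control feeders, with a median of 0.37. Of all genes, 35.9% were called higher there and 38.4% lower. Mrpl21 averaged 68.5 CPM in feeders labelled p53-defective and 23.7 CPM in control feeders (1.53 ± 0.10).

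In ES cells on feeders labelled p53-defective relative to control feeders, 48 rose and 15 fell. Of all genes tested, 36.6% were called higher and 46.7% lower. The median of the list was 0.35, against -0.18 over all genes. It was 0.006 on total counts and -0.31 on TPM. On TPM 20 were higher, against 19.3% of all genes, and 48 lower, against 65.2% of all genes. Mrpl14 averaged 83.2 CPM on feeders labelled p53-defective and 17.6 CPM on control feeders (2.24 ± 0.10), and Mrps2 35.4 CPM on feeders labelled p53-defective and 87.4 CPM on control feeders (-1.30 ± 0.07). The Spearman correlation of change and transcript length over these 78 genes, which share the libraries, was -0.54 as a description. Their share of all counts was 0.354 to 0.432% on feeders labelled p53-defective, 0.478 to 0.495% with ATN161, 0.384 to 0.411% after feeder removal and 0.381 to 0.387% on control feeders.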
